A study of Mus musculus with 2 samples.

Results

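The cells described here are the 662 retinal bipolar cells that the authors placed in their cluster 11. They were chosen by 2 entries of the deposited cell table, the cell type (bipolar cell) and the cluster number, out of 5743 bipolar cells in 10 clusters and 30943 cells in all. Single-cell RNA sequencing was carried out on 30-day-old mouse retina, with 1 library from 1 mouse per genotype. Ptbp1-Ctrl carried the Chx10-Cre transgene alone, and Ptbp1-KO carried the same transgene with both copies of Ptbp1 floxed (Chx10-Cre;Ptbp1lox/lox), so both groups expressed Cre. Chx10-Cre is active in retinal progenitors, so the deletion reaches neurons and Müller glia that descend from them and is not limited to bipolar cells. Cluster 11 held 423 cells with 1171525 UMIs (unique molecular identifiers, each counting 1 captured RNA molecule) in Ptbp1-Ctrl and 239 cells with 868708 UMIs in Ptbp1-KO. The median cell carried 2591 and 3408 UMIs and 1597 and 1986 detected genes, respectively. Since each genotype is 1 animal, no test between genotypes was possible. All intervals below are exact 95% intervals that cover counting error only.

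Bipolar cells carry the signal of rods and cones from the outer to the inner retina. ON bipolar cells sense photoreceptor glutamate through the receptor mGluR6 (Grm6), whose cascade closes the channel TRPM1 in the dark, whereas OFF bipolar cells use ionotropic kainate and AMPA receptors such as the one built with Grik1. Cone bipolar cells are further divided into numbered types that differ in the depth at which their axons end and in the genes that mark them. PTBP1 is an RNA-binding protein that represses neuronal exons in progenitors and glia, and its paralog PTBP2 takes its place in maturing neurons.

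The targeted gene was checked first. Ptbp1 (chromosome 10, 79854427 to 79864771, plus strand, mm10) gave 29 UMIs in 29 of the 423 Ptbp1-Ctrl cells of cluster 11, and 0 UMIs in the 239 Ptbp1-KO cells. Its Ptbp1-Ctrl level was 24.8 CPM, where CPM is a gene's UMIs summed over the cells, divided by all their UMIs and scaled to 1000000. Taking a count of 0 as 3 UMIs, it was at least 7.17-fold lower, and the same limit, 3 of 239 cells, allows a share of up to 1.26% of cells with a Ptbp1 UMI. This limit is not one of the exact intervals. Below, a pair of values gives Ptbp1-Ctrl first. In the other bipolar cells Ptbp1 gave 175 UMIs in Ptbp1-Ctrl and 1 UMI in Ptbp1-KO. Ptbp2 was present in both genotypes (223 and 248 CPM), with a log2 ratio of Ptbp1-KO over Ptbp1-Ctrl of 0.15 and an interval of -0.12 to 0.42.

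RNA of other retinal cell types was present at low levels. The 10 rod markers were all detected and took 1.01% of the UMIs of cluster 11 in Ptbp1-Ctrl and 0.778% in Ptbp1-KO, against 5.97% and 5.37% in the rods themselves. The 7 cone markers took 0.0985% and 0.0782%, against 3.18% and 3.27% in cones. The 8 Müller glia markers took 0.0257% and 0.0170%. Over the 9 amacrine, 6 ganglion and 4 horizontal cell markers, the summed UMIs were 16 and 18, 7 and 4, and 24 and 16, and the defining genes Slc32a1 and Pou4f2 were at 0 in both libraries. No cell barcode of cluster 11 was shared by the libraries, although 63 were shared over all cells. Female mice are named in the study's methods, but cluster 11 held 207 and 161 UMIs of the Y-linked Eif2s3y and 0 and 1 UMIs of Xist, so both libraries went against that description.

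The mGluR6 receptor gene was high in cluster 11, although Grm6 was the only 1 of the 7 ON bipolar markers at least 2-fold above the other bipolar cells, which include other ON types. Grm6 stood at 735 CPM (687 to 786) and 763 CPM (706 to 824), the highest of the 10 bipolar clusters in both libraries. The next highest was cluster 10, with 499 and 454 CPM. Isl1, a homeobox factor of ON bipolar cells, was at 694 and 653 CPM, below only the rod bipolar cluster 5 (763 and 831 CPM). Trpm1 was at 1624 and 1790 CPM, below the rod bipolar clusters 5 (3163 and 3399 CPM) and 10 (3155 and 3601 CPM). Rgs11, a regulator that speeds the G protein of the cascade, was highest in cluster 11 with 129 and 144 CPM.

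Grik1, an OFF bipolar gene and 1 of the 5 genes given as marks of these cells, went against that mark. It reached only 83.7 CPM (67.9 to 102) and 74.8 CPM (57.8 to 95.4), whereas OFF bipolar cluster 18 held 10235 and 10232 CPM. The kainate receptor subunit gene Grik2 and the auxiliary subunit gene Neto1 were likewise near 0, with 6 and 5 UMIs and 3 and 0 UMIs. The rod bipolar genes Prkca and Sebox were low too: Prkca was at 207 and 162 CPM, against 8030 and 8053 CPM in cluster 10, and Sebox gave 5 and 2 UMIs. Cluster 11 was therefore an ON cone bipolar cluster by its own receptors.

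The cone bipolar genes Scgn (secretagogin, a calcium-binding protein) and Vsx1 (a homeobox factor) were both well detected. Scgn stood at 642 and 771 CPM, the next after cluster 13 (812 and 886 CPM). Vsx1 stood at 335 and 318 CPM, next after cluster 19 (602 and 630 CPM). Lhx3, a LIM homeobox factor better known in OFF types, was highest in cluster 11 at 93.9 and 85.2 CPM, above cluster 9 with 73.3 and 82.7 CPM. Lhx4, a related factor listed for cone bipolar cells in general, was nearly absent at 15.4 and 16.1 CPM, while cluster 18 held 475 and 512 CPM.

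Among the bipolar subtype genes, Cck set cluster 11 apart most clearly. Cck (chromosome 9, 121489824 to 121495694, minus strand), which encodes the neuropeptide cholecystokinin, was at 796 CPM (745 to 848) in Ptbp1-Ctrl and 576 CPM (526 to 628) in Ptbp1-KO. In no other bipolar cluster did it exceed 77.8 and 50.6 CPM. Cluster 11 held 85.2% and 82.1% of all Cck UMIs of the bipolar cells. When every cell was thinned to 1000 UMIs, which left out 14 and 5 of its cells, a Cck UMI was found in 46.0% and 37.2% of the cells of cluster 11 (66.9% and 59.8% before thinning). The same share was 0.865% and 0.748% in other bipolar cells, and 0.321% and 0.104% in a sample of rods, whose median depth was 1088 and 1288 UMIs and which should lack the gene. Cnmd (chondromodulin) was also highest in cluster 11, at 167 and 184 CPM, with at most 22.2 and 27.7 CPM in any other bipolar cluster.

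Other markers of type 6 did not follow. Syt2 gave 15 and 12 UMIs and was higher in OFF cluster 9. Lrrtm1 gave 4 and 3 UMIs, against 97.2 and 85.8 CPM in cluster 12. Syt2 was also listed for type 2, and Lrrtm1 for type 5. The markers of types 8 and 9 were also highest in cluster 11: Spock3 with 277 and 362 CPM, Cpne9 with 48.7 and 100 CPM, and, in Ptbp1-KO, Serpini1 with 129 CPM. The type 7 genes Igfn1 and Gnat3 were at 1 and 2 UMIs and at 0 UMIs, and marked cluster 19 instead. The type 5 gene Sox6 gave 10 and 4 UMIs, with 1284 and 1410 CPM in cluster 12. One cluster number thus held genes of more than 1 bipolar type, and the cells within it are described separately below.

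**Figure D1:**
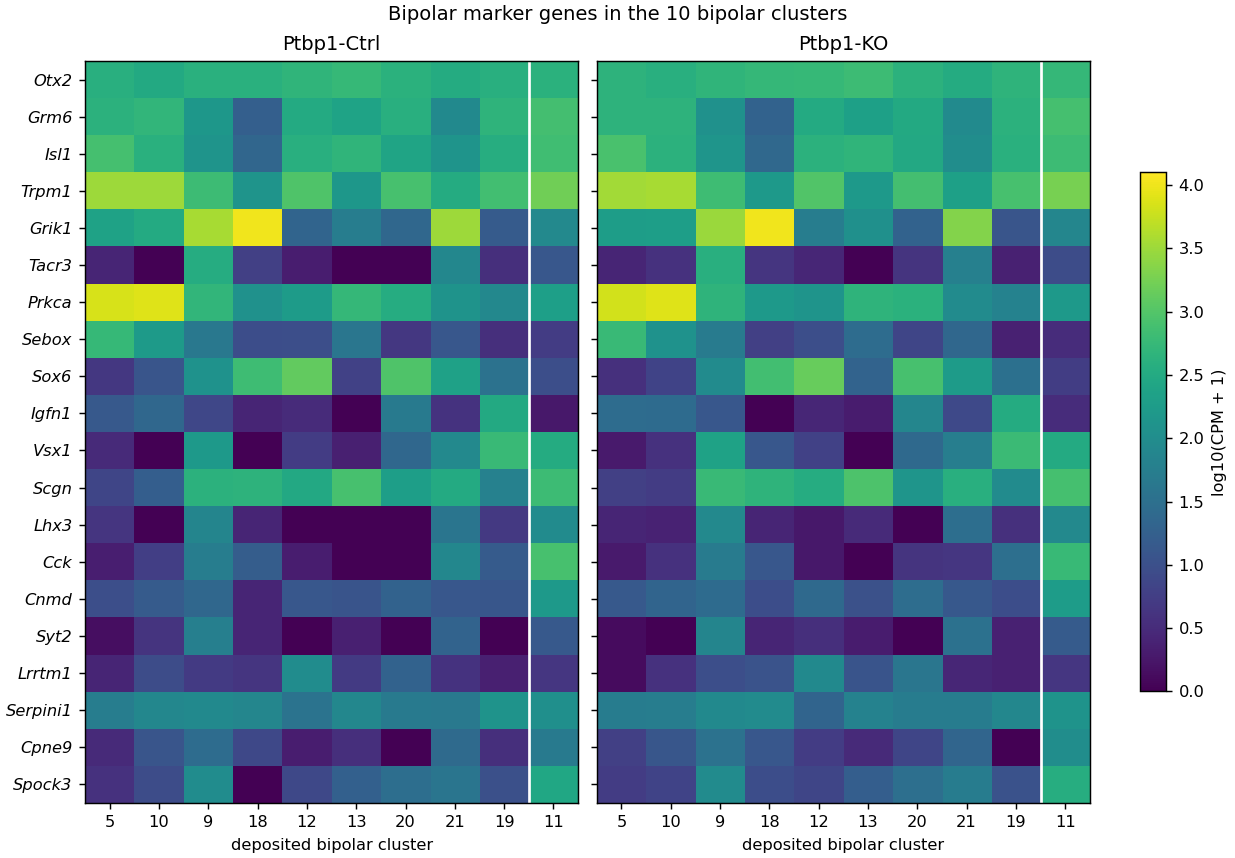
Level of 20 bipolar marker genes (rows) in the 10 deposited bipolar clusters (columns, cluster 11 at the right of the white line), as log10(CPM + 1), for the Ptbp1-Ctrl library on the left and the Ptbp1-KO library on the right. In both libraries cluster 11 was bright for Grm6, Isl1, Trpm1, Scgn, Vsx1, Cck, Cnmd and Spock3 and dim for Grik1, Sox6 and Igfn1.

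To place cluster 11 among the bipolar clusters, expression profiles were correlated over 2172 genes, on log2(CPM + 10). This is a description across genes, which are not independent replicates and which share library and depth. The profile was most like those of cluster 9 (Pearson r = 0.785), an OFF cluster with Grik1, Tacr3 and Erbb4, and cluster 19 (r = 0.775), the cluster with Igfn1 and Gnat3. Cluster 21 followed (r = 0.693) but carried cone markers at 1.75% and 1.84% of its UMIs, and the least alike was cluster 18 (r = 0.579). Despite the closeness, 65 of 2162 genes were at least 2-fold higher and 91 at least 2-fold lower in cluster 11 than in cluster 9 in both libraries. Against cluster 19 the numbers were 97 and 79 of 2170 genes.

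Cluster 11 was then compared with the pool of all other bipolar cells, gene by gene, within each library. The clusters were drawn from these same genes, so the ratios describe the cluster and are not a test. Of 2168 genes with a mean of at least 100 CPM and at least 50 UMIs, 81 (3.74%) were at least 2-fold higher in cluster 11 in both libraries and 91 (4.20%) at least 2-fold lower. After Cck, with log2 ratios of 5.40 in Ptbp1-Ctrl and 5.63 in Ptbp1-KO, the gene that stood highest was Grin3a (chromosome 4, 49661611 to 49845744, minus strand). Grin3a encodes the glycine-binding NMDA receptor subunit GluN3A. Its level was 445 and 686 CPM in cluster 11 against 17.6 and 14.0 CPM in other bipolar cells, and 77.4% and 82.0% of its bipolar UMIs lay in cluster 11.

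Unc13c (Munc13-3, a vesicle priming factor) reached 3053 and 3260 CPM against 429 and 385 CPM, and was the most abundant of the 20 highest genes. After thinning, an Unc13c UMI was present in 88.0% and 89.7% of cluster 11 cells, in 22.6% and 21.2% of other bipolar cells, and in 0.214% and 0.835% of the sampled rods. Plcb1, a phospholipase C, was at 502 and 852 CPM, with 235 and 538 CPM in the next cluster, 19.

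Unc5d, a netrin receptor, was at 2335 and 2530 CPM (log2 2.58 and 2.80), and Efna5, the ligand ephrin-A5, at 296 and 401 CPM (3.02 and 3.37). Pcdh11x, a protocadherin on the X chromosome, was at 202 and 359 CPM against 14.5 and 14.3 CPM. The receptor phosphatase Ptprm (log2 2.73 and 3.01), the matrix gene Fbn1 (3.24 and 2.66), the heparan sulfatase Sulf1 (2.22 and 2.45) and the proteoglycan Spock3 (3.44 and 3.92) all stood highest in cluster 11. Reln, which encodes the secreted protein reelin, was an exception: its 1228 and 1124 CPM were below the 1742 and 1554 CPM of cluster 19.

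Regulators of transcription among the 20 were Npas3 (log2 3.71 and 4.06), Maml2, a Notch co-activator (2.82 and 2.72), and the homeobox genes Mkx (2.57 and 2.89) and Six3 (2.41 and 2.35). Tnnt1, a troponin T gene best known from slow muscle, was at 217 and 315 CPM against 36.1 and 49.0 CPM. A330008L17Rik, a long noncoding RNA, and Pcp4l1 completed the list. In 19 of the 20 genes, Reln being the exception, cluster 11 ranked first of the 10 bipolar clusters in both libraries, and the cluster that came next was 9 or 19 for most of them.

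The genes that stood lowest in cluster 11 were those of other bipolar types. Lrrtm4, a postsynaptic adhesion gene of rod bipolar cells, was at 60.6 and 39.1 CPM against 9988 and 11138 CPM in cluster 10. Il1rap gave 1 UMI in each library, at log2 ratios of -7.91 (-13.21 to -5.43) and -7.69 (-12.99 to -5.21). Asic2, Cep112, Pcp4 and Sebox were likewise highest in the rod bipolar clusters 5 and 10. Hs3st4 and Il1rapl2 were highest in cluster 19, Sox6 in cluster 12, and Kcnip4, a potassium channel partner, in cluster 18 with 12348 and 12611 CPM against 58.0 and 21.9 CPM in cluster 11.

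**Figure D2:**
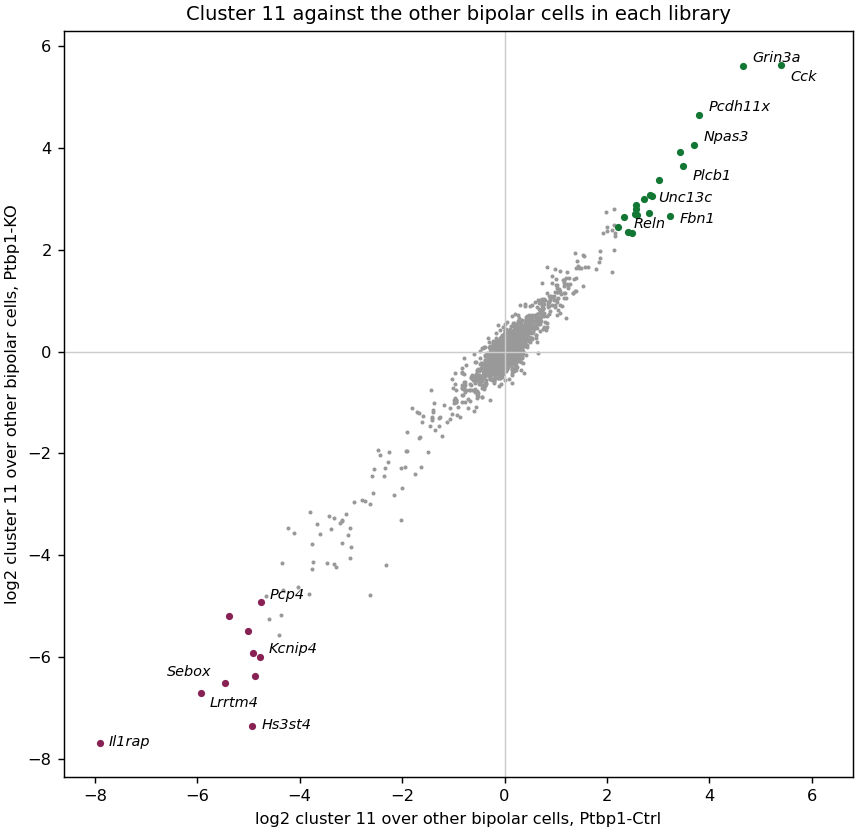
Log2 ratio of CPM in cluster 11 over all other bipolar cells for each gene at the minimum level, in Ptbp1-Ctrl (horizontal axis) and Ptbp1-KO (vertical axis). The 20 highest genes are green, the 10 lowest purple and all others grey. The points lie along the diagonal, from Il1rap at -7.91 and -7.69 to Cck at 5.40 and 5.63.

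Gene lists were read against all 15075 genes with at least 20 UMIs, of which 347 (2.30%) were at least 2-fold higher in cluster 11 in both libraries and 714 (4.74%) at least 2-fold lower. In the mGluR6 cascade, 1 of 15 members was higher (Grm6) and 2 were lower (Rgs7 and Pcp2). Pcp2, a modulator of the cascade's G protein, was at 188 and 135 CPM against 2540 and 2614 CPM in other bipolar cells, while Rgs7 was at 400 and 429 CPM against 1069 and 1088 CPM. Gnao1, Gnb3 and Gng13, which encode the subunits of that G protein, stayed within 2-fold. Of 25 genes of the ribbon synapse and vesicle release, 0 passed 2-fold in either direction, with a median log2 ratio of 0.02 in Ptbp1-Ctrl and 0.03 in Ptbp1-KO.

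The receptor genes were more divided. Among 12 measured ionotropic glutamate receptor genes, 1 was higher and 5 were lower (Grik1, Grik2, Grik4, Gria1 and Neto1). The AMPA receptor gene Gria2 was the main one left in cluster 11, at 606 and 672 CPM, with Gria1 at 23 and 13 UMIs. Of 16 measured GABA and glycine receptor genes, 2 were higher and 2 lower. The glycine receptor gene Glra1 was low at 21.3 and 12.7 CPM, against 278 and 293 CPM in cluster 9, and so was the GABA-B receptor gene Gabbr2.

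Voltage-gated channel genes were lower or within 2-fold. Of 24 measured, 0 were at least 2-fold higher and 12 lower, with a median log2 ratio of -1.28 in either library. Kcnma1, the large-conductance potassium channel gene, and Kcnb2 were retained at 3034 and 3118 CPM and at 1456 and 1371 CPM.

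In the adhesion and wiring list, 3 of 32 genes were higher and 16 lower. Pcdh9 was the most abundant of the higher ones, at 8336 and 9298 CPM against 3141 and 2700 CPM, followed by Unc5d and Cdh8 (1175 and 1359 CPM). Cdh9, Cdh11, Cntn4 and Cntn6 were among the lower ones. Of 30 transcription factor genes of bipolar cells, 5 were higher (Vsx1, Lhx3, Zfhx4, Six3 and Zfhx3) and 15 lower. The lower ones included Nfia and Nfib, at 47.0 and 44.9 CPM and at 19.6 and 26.5 CPM, and Sox5, Sox6, Ebf1 and St18. Of 11 measured calcium-binding protein genes, Scgn and Cabp2 were higher, and Cabp5, Pcp2 and Pcp4 were lower. Of 18 PTB and neuronal splicing genes, Rbfox3 was higher, at 13.7 and 12.7 CPM, and 0 were lower. Of 15 genes of the dissociation stress response, 0 passed 2-fold.

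Since markers of more than 1 type were found, cells of cluster 11 were divided into 3 groups. A mixture of 3 multinomial profiles was fitted to 970 genes. The starting cells had UMIs of Cck or Cnmd without Cpne9, or of Cpne9 without Cck or Cnmd. Those of the Spock3 group had UMIs of Spock3 and none of Cck, Cnmd, Cpne9 or Scgn. The groups were therefore chosen on these genes, and their levels are given as a description. The Cck group held 513 cells (77.5%), the Cpne9 group 86 cells and the Spock3 group 63 cells (9.52%). Only 1 cell had a posterior under 0.95, and fits on the even-numbered or odd-numbered genes alone placed 657 and 651 of the 662 cells in the same group. These fits began from the same starting cells and used part of the same genes. A posterior over many genes also comes near 1 easily, so neither value tests whether 3 groups exist. Cck and Cpne9 UMIs occurred together in 8 cells, against 43.1 cells from the product of their shares. By contrast, Cpne9 and Pcdh11x were found together in 59 cells against 9.11, and Cck and Cnmd in 199 against 147.

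The Cck group carried the genes by which cluster 11 was recognized as a whole. It held Cck at 882 CPM, Cnmd at 220 CPM, Scgn at 876 CPM, Vsx1 at 411 CPM and Lhx3 at 112 CPM over both libraries. Its leading genes were Ptprm (648 CPM against 15.3 in the Cpne9 group and 11.3 in the Spock3 group), Ntng1, which encodes the adhesion protein netrin-G1 (2122, 68.9 and 67.9 CPM), and the cadherin gene Cdh8 (1582, 65.1 and 28.3 CPM). The receptor genes Grid1 (727, 23.0 and 39.6 CPM) and Grm7 (1213, 84.3 and 51.0 CPM) and Scg2, a granin of secretory vesicles (1558, 103 and 96.2 CPM), followed the same pattern. It was given no type name, because of the 4 type 6 markers only Cck and Cnmd set it apart. Syt2 (16.9 CPM, below the 58.2 and 71.3 CPM of cluster 9) and Lrrtm1 (3.74 CPM) did not. Syt2 was also listed for type 2 and Lrrtm1 for type 5, so neither is particular to type 6.

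The Cpne9 group was set apart by genes that were nearly absent from the rest of cluster 11. Pcdh11x was at 1961 CPM, against 21.2 CPM in the Cck group and 17.0 CPM in the Spock3 group. The teneurin gene Tenm1 was at 1333 CPM (13.7 and 5.66 elsewhere), the adhesion gene Kirrel3 at 946 CPM and the potassium channel subunit gene Kcnab1 at 1823 CPM (38.7 and 79.3). Of the markers of types 8 and 9, Cpne9 was at 483 CPM and Serpini1 at 525 CPM, but Spock3 was at only 61.3 CPM, below the 275 CPM of the Cck group. Scgn (68.9 CPM), Vsx1 (34.5 CPM) and Neurod4 (99.6 CPM, against 837 CPM in the Cck group) were low. It was left without a type name too, because its Spock3 level went against the list.

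The Spock3 group held Spock3 at 1030 CPM and Serpini1 at 306 CPM with 0 UMIs of Cpne9 and 0 of Scgn. Its starting cells were chosen to lack Cpne9 and Scgn, so their absence was favored by the start of the fit. The adhesion gene Csmd3 stood at 7263 CPM, against 993 CPM in the Cck group and 1356 CPM in the Cpne9 group. Wls, which carries Wnt proteins to the surface, was at 226 CPM (1.25 and 26.8 elsewhere), the semaphorin gene Sema6a at 130 CPM (3.12 and 11.5) and Glra1 at 113 CPM (9.36 and 3.83). Pcdh7 was at 4133 CPM, against 115 and 1394 CPM. With Cpne9 undetected, this group also stayed unnamed. The cone opsin gene Opn1mw was among its 15 leading genes, at 194 and 29.3 CPM from 23 UMIs in all. Of these, 21 UMIs lay in only 4.65% of the 43 Ptbp1-Ctrl cells, so few cells set this value. The part of cone RNA in it was not tested.

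The ON genes were shared by the 3 groups. Grm6 was at 791, 410 and 844 CPM in the Cck, Cpne9 and Spock3 groups, Trpm1 at 1798, 1149 and 1568 CPM, and Isl1 at 747, 276 and 628 CPM. Grik1 gave 99.9 CPM in the Cck group, 0 in the Cpne9 group and 17.0 in the Spock3 group. Unc13c (3357, 2099 and 2723 CPM) and Grin3a (603, 287 and 425 CPM) also spanned all 3, whereas Npas3 was highest in the Spock3 group (1268 CPM) and Unc5d was lower in the Cck group (1968 CPM) than in the other two (3834 and 4416 CPM).

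**Figure D3:**
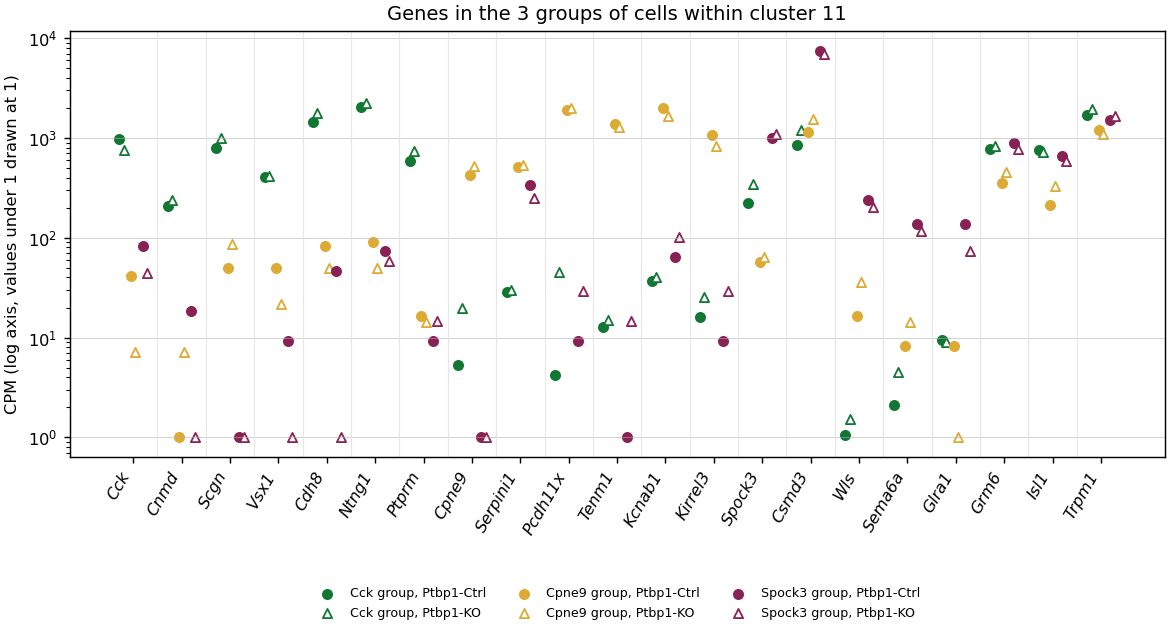
Level of 21 genes in the Cck (green), Cpne9 (yellow) and Spock3 (purple) groups of cluster 11 in CPM on a log axis, with filled circles for Ptbp1-Ctrl and open triangles for Ptbp1-KO. The libraries gave like levels within a group for most of the leading genes shown, such as Pcdh11x at 1913 and 2002 CPM in the Cpne9 group. Glra1 differed more, at 138 and 73.3 CPM in the Spock3 group. Grm6, Isl1 and Trpm1 were present in all 3 groups.

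Between genotypes, cluster 11 made up a smaller share of the bipolar cells in Ptbp1-KO. The share was 13.2% (12.1 to 14.5) in Ptbp1-Ctrl and 9.38% (8.27 to 10.6) in Ptbp1-KO, a ratio of 0.708. This was the lowest ratio of the 10 bipolar clusters, the others lying between 0.807 (cluster 19) and 1.17 (cluster 20). As a share of all cells of the library, cluster 11 was at 2.58% and 1.65%. Most of the difference lay in the Cck group, which was 10.4% (9.39 to 11.5) of bipolar cells in Ptbp1-Ctrl and 7.06% (6.10 to 8.13) in Ptbp1-KO. The Cpne9 group was at 1.47% (1.08 to 1.95) and 1.53% (1.09 to 2.09), and the Spock3 group at 1.35% (0.976 to 1.81) and 0.785% (0.480 to 1.21), with intervals that overlap. With 1 mouse each, genotype, animal and dissociation cannot be told apart.

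**Figure D4:**
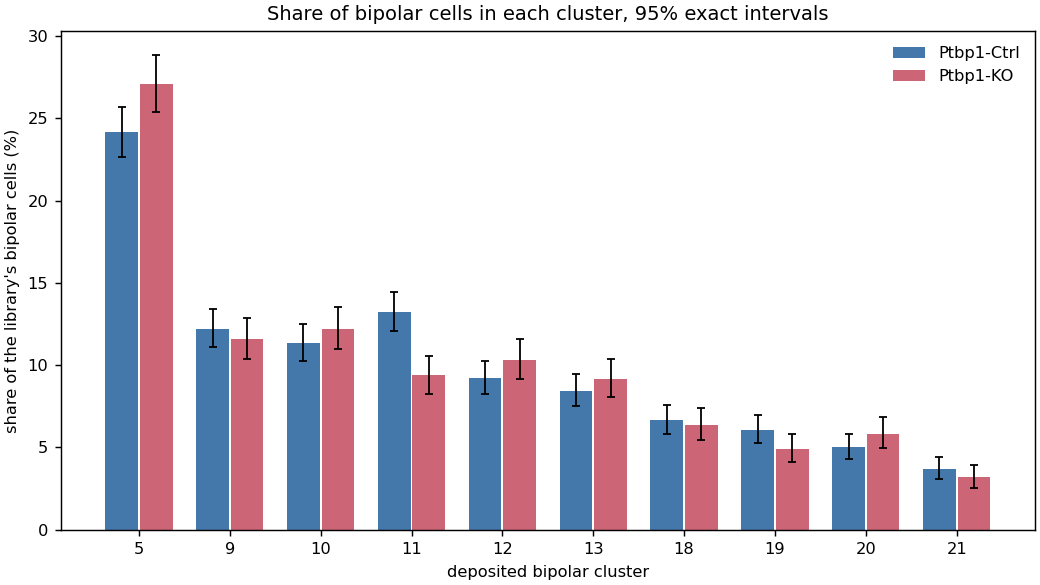
Share of the library's bipolar cells in each of the 10 deposited bipolar clusters for Ptbp1-Ctrl (blue) and Ptbp1-KO (red), in percent, with exact 95% intervals. Cluster 11 went from 13.2% to 9.38%, and its intervals do not overlap.

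Expression within cluster 11 was alike in the libraries for most genes. Of 2129 genes with a mean of at least 100 CPM and at least 50 UMIs, 1 (0.0470%) was at least 2-fold higher in Ptbp1-KO and 4 (0.188%) at least 2-fold lower. The 5th and 95th percentiles of the log2 ratio were -0.39 and 0.37, and the median was -0.01. At 1.5-fold, 22 genes were higher and 25 lower.

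The higher gene was Abcd4, a transporter of the vitamin B12 pathway, at 86.2 CPM (70.2 to 105) in Ptbp1-Ctrl and 220 CPM (190 to 253) in Ptbp1-KO. Its log2 ratio was 1.35 (0.99 to 1.71) in cluster 11, 1.24 (1.13 to 1.36) in the other bipolar cells and above 0 in 9 of the 9 other clusters. With every cell thinned to 1000 UMIs its ratio was 0.86, under 2-fold. Zfp365 (0.95 in cluster 11 and 0.83 in other bipolar cells), Nmnat3, an enzyme of NAD synthesis (0.84 and 0.84), and the predicted genes Gm10800 (0.91 and 0.70) and Gm10801 (0.74 and 0.75) also had alike ratios inside and outside cluster 11.

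The 4 lower genes were Gm47283, Cox7b, Rpl29 and Pdzph1. Gm47283, a predicted gene annotated on the Y chromosome (90784738 to 90816464, plus strand), had 1381 CPM (1315 to 1450) in Ptbp1-Ctrl but 272 CPM (238 to 309) in Ptbp1-KO. Its log2 ratios were -2.35 here and -2.48 in other bipolar cells. Cox7b, a subunit of cytochrome c oxidase, had 518 CPM (478 to 561) and 188 CPM (160 to 219), with ratios of -1.46 and -1.19. The ribosomal gene Rpl29 had ratios of -1.27 and -1.01. These differences were thus also present in the other bipolar cells. The values of Gm47283, Rpl29, Gm10800 and Gm10801 are uncertain, since their reads may be shared with similar copies or repeats.

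Some ratios in cluster 11 were farther from 0 than those of the other bipolar cells, although the difference was not tested. Pdzph1 went from 313 to 140 CPM, a log2 ratio of -1.16 (-1.46 to -0.86), against -0.47 (-0.57 to -0.38) in other bipolar cells. The adhesion gene Lrrc4c (-0.92 and -0.36) and Dpysl3, a cytoskeletal regulator of axons (-0.95 and -0.41), showed the same. Among the higher genes, the cadherin gene Cdh10 went from 141 to 250 CPM, a ratio of 0.83 (0.53 to 1.13), and was at -0.01 (-0.16 to 0.14) in other bipolar cells. Single clusters varied more than this pool. Lrrc4c reached -1.19 and Cdh10 0.88 in another bipolar cluster, both beyond cluster 11, and Cdh10 was above 0 in 7 of 9. The lowest ratios elsewhere were -0.80 for Pdzph1 and -0.60 for Dpysl3.

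Pcdh11x and Plcb1, which differ between the groups within cluster 11, need to be set beside those groups. The Cpne9 group was 11.1% (8.28 to 14.5) of cluster 11 in Ptbp1-Ctrl and 16.3% (11.9 to 21.6) in Ptbp1-KO. Pcdh11x was at 202 and 359 CPM in the whole cluster, a ratio of 0.83 (0.58 to 1.08), and at 1913 and 2002 CPM within the Cpne9 group. Within the Cck group it gave 4 and 30 UMIs, a ratio of 3.42 (1.91 to 5.39). These UMIs lay in only 1.20% of the 333 Ptbp1-Ctrl cells and 2.78% of the 180 Ptbp1-KO cells. The interval does not cover this uneven spread over cells. Cpne9 went from 48.7 to 100 CPM in the whole cluster and was at 429 and 529 CPM within the Cpne9 group. Plcb1 had a ratio of 0.76 (0.60 to 0.92) in the whole cluster and 1.22 (1.01 to 1.43) in the Cck group alone, and 0.60 (0.42 to 0.79) in other bipolar cells. Over the 9 other bipolar clusters the Plcb1 ratio ranged from 0.001 to 2.34, and cluster 19 went from 235 to 538 CPM. Spock3 had 0.39 (0.16 to 0.62) in the whole cluster, 0.66 (0.38 to 0.93) in the Cck group and -0.10 (-0.37 to 0.18) in other bipolar cells. Cck itself was lower in Ptbp1-KO, with -0.47 (-0.63 to -0.31) in the whole cluster and -0.38 (-0.54 to -0.22) in the Cck group.

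**Figure D5:**
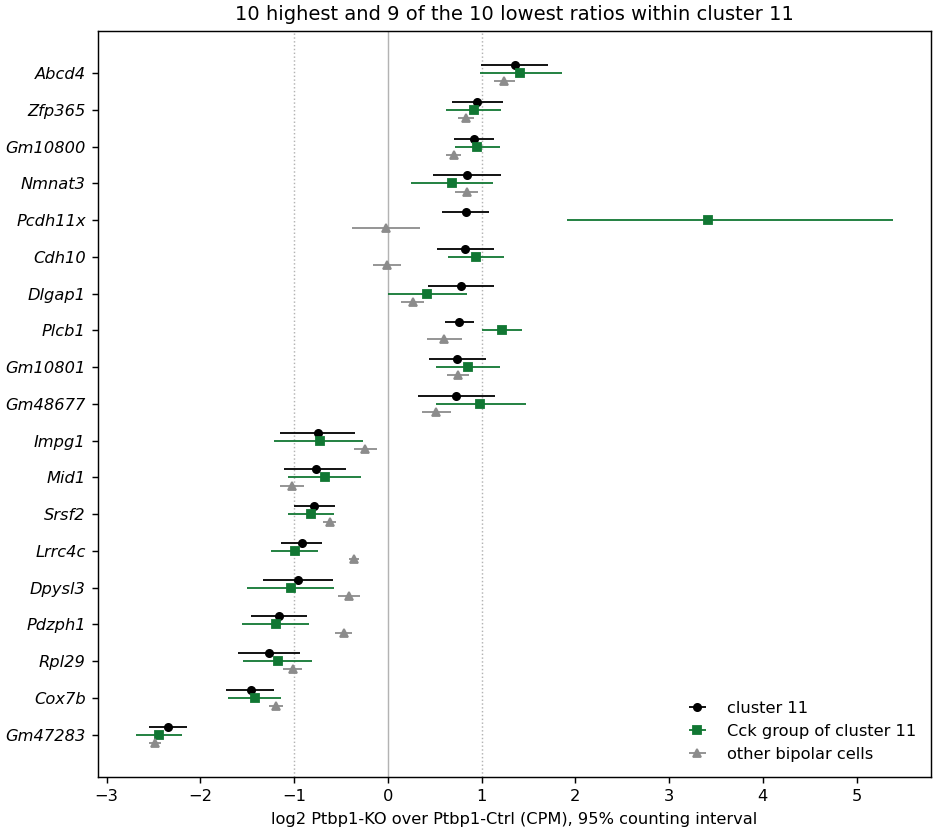
Log2 ratio of CPM in Ptbp1-KO over Ptbp1-Ctrl with 95% counting intervals for the 10 highest and 9 of the 10 lowest genes of cluster 11, in all of cluster 11 (black circles), in its Cck group (green squares) and in the other bipolar cells (grey triangles). The dotted lines mark 2-fold. Abcd4, Gm47283, Cox7b and Rpl29 had alike ratios in all 3, whereas Pcdh11x and Cdh10 were near 0 in the other bipolar cells.

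Of all 9576 genes with at least 20 UMIs in cluster 11, 199 (2.08%) were at least 2-fold higher in Ptbp1-KO and 171 (1.79%) at least 2-fold lower. The mGluR6 cascade had 0 of 15 members past 2-fold, with log2 ratios between -0.54 (Rgs9bp) and 0.26 (Gpr179), and Grm6 was at 0.05 (-0.09 to 0.20). Of 24 measured ribbon synapse genes and 7 ionotropic glutamate receptor genes, 0 passed 2-fold in either direction. Of 13 measured GABA and glycine receptor genes, 1 was higher, Gabrg3 from 7 to 18 UMIs. The medians of the 10 lists of gene function lay between -0.17 (calcium-binding proteins) and 0.17 (GABA and glycine receptors), beside 0.003 over all 9576 genes.

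Of 22 measured transcription factor genes, Sox5 was higher (15 and 32 UMIs) and 0 were lower. Otx2 had a ratio of 0.37 (0.19 to 0.56) and Vsx1 -0.08 (-0.30 to 0.15). Of 18 measured voltage-gated channel genes, Kcng4 and Scn3a were higher (17 to 29 and 11 to 22 UMIs) and Kcnip4 lower (68 to 19 UMIs). Of 26 measured adhesion and wiring genes, Cntn6 was higher (5 to 24 UMIs) and 1, Erbb4, was lower (15 to 5 UMIs). Of 8 measured calcium-binding protein genes, 0 passed 2-fold. Of 14 PTB and neuronal splicing genes, 0 were higher and 2 lower, the deleted Ptbp1 and its paralog Ptbp3 (20 to 7 UMIs, with an interval of -2.57 to 0.22).

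Other quantities moved with genotype as well. The immediate early genes Egr1 (6 to 24 UMIs) and Junb (19 to 33 UMIs), 2 of the 11 measured dissociation stress genes, were past 2-fold higher in Ptbp1-KO, while the median of that list was 0.04 and Hsp90aa1 was at -0.28. The 10 rod markers had log2 ratios between -0.55 and -0.13, and the cone genes Arr3 and Opn1sw went from 71 to 10 UMIs and from 99 to 17 UMIs. The part of these in the gene values above was not tested. Of 12 measured genes picked earlier from these same libraries, which are no independent evidence, 3 were higher and 5 lower, with a median of -0.19. Leaving out the 10% of cells with the most RNA of other types kept the counts at 1 higher and 4 lower gene.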

How the data were processed

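The retina of 1 mouse per genotype was profiled by droplet single-cell RNA-seq. The authors aligned reads to mm10 with Cell Ranger 7.0.1, kept cells with over 200 and under 5000 genes, over 700 and under 10000 UMIs and under 20% mitochondrial reads, and clustered them in Seurat 4. The deposited table holds raw UMI counts of 25778 genes per cell. The deposited cell table gives totals, clusters, cell types and the percent of mitochondrial UMIs. The annotation and the use of intronic reads are not given in the sources used here. The table's other 2 per-cell columns were not used.

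UMIs were summed per library and cluster and scaled to CPM. The differences counted were at least 2-fold, among genes with a mean of at least 100 CPM and at least 50 UMIs. Members of lists needed at least 20 UMIs. Ratios and levels carry exact Poisson or conditional binomial intervals, and shares Clopper-Pearson intervals, all at 95% and for counting error only. No test over cells was made and no doublet caller was run. The scripts were tested on simulated data. The genes named are the 20 highest and 10 lowest in cluster 11, the 10 highest and 10 lowest between genotypes, and members of the lists. Some of these genes are not reported here. The members and lists were chosen with earlier results of these data known. Coordinates come from GENCODE M21 on mm10. Python 3.11.15, scipy 1.17.1 and edgeR 4.0.16 (scaling factors only) were used.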

Additional observations from a re-analysis of the deposited data

How the results depend on the processing

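No paired analysis was possible because each genotype had 1 library. For the same reason no library could be left out. With other weights or cells (edgeR TMM scaling, a mean over cells, thinning to 1000 UMIs, leaving out the 10% of cells with the most UMIs or the most RNA of other types, other clusters weighted alike), the genes higher and lower in cluster 11 than in other bipolar cells stayed within 1.5 times the 81 and 91 reported. The same held for the Cck group alone and without the 3 clusters of most photoreceptor RNA, both chosen after seeing the data.

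The number of genes higher in Ptbp1-KO moved from 1 to 2 with the mean over cells, 12 after thinning, 2 without the 10% of cells with the most UMIs and 3 in the Cck group. The number lower moved from 4 to 8 after thinning. A minimum of 50 CPM gave 157 genes lower in cluster 11, and 7 higher and 12 lower in Ptbp1-KO. A minimum of 200 CPM gave 49 higher and 44 lower in cluster 11 and 0 higher in Ptbp1-KO. No minimum gave 482 and 714 in cluster 11 and 476 and 368 in Ptbp1-KO. From 1.5-fold there were 159 higher in cluster 11, and 22 higher and 25 lower in Ptbp1-KO. From 3-fold there were 35 higher in cluster 11, and 0 higher and 1 lower in Ptbp1-KO. These follow from the stricter or looser limits, while the cause of the moves under thinning was not tested.

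In the Cck group alone, the log2 ratios to other bipolar cells in Ptbp1-Ctrl reversed for Pcdh11x (-1.77) and Cpne9 (-0.79), genes that the Cpne9 group holds. Over all settings, other such ratios in Ptbp1-Ctrl moved in size, such as those of Plcb1 (2.84 to 4.14) and Cck (5.35 to 6.41). The log2 ratio of Abcd4 between genotypes ranged from 0.86 to 1.41 and that of Pdzph1 from -1.20 to -0.90, both crossing 2-fold. That of Pcdh11x ranged from 0.57 to 3.42, the latter in the Cck group, where only 2.78% of the Ptbp1-KO cells held a UMI of it. Those of Gm47283, Cox7b and Rpl29 ranged from -2.50 to -2.35, -1.54 to -1.33 and -1.40 to -1.07. The share ratio was 0.639 among all cells, 0.752 outside the rod bipolar clusters and 0.706 at matched depth. List medians between genotypes changed sign under some alternatives for adhesion (-0.02 to 0.13), transcription factor (-0.10 to 0.06), voltage-gated channel (-0.13 to 0.15), calcium-binding (-0.21 to 0.07) and splicing genes (-0.10 to 0.01), and for stress genes (-0.004 to 0.105). With 1 animal per genotype, the spread between animals is unknown.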
